A study of Macaca mulatta with 24 samples.

Results

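The claudin family was examined in the ileum of rhesus macaques after total-body irradiation (TBI). The genes of interest were CLDN1, CLDN2, CLDN3, CLDN4, CLDN5, CLDN7, CLDN8, CLDN10, CLDN15 and CLDN23, and every probe carrying one of these symbols in the deposited normalized ileum table was taken. Of these 10 genes 8 had a probe, among 16177 genes with a symbol on the array, and CLDN5 and CLDN23 had none under this rule. CLDN3 and CLDN15 were each measured by 2 probes, numbered here from the brighter to the dimmer, which gave 10 claudin probes in all. Total RNA of the ileum was hybridized to 24 one-colour Agilent Rhesus arrays, 1 per animal. The animals were young-adult males that received a single dose from a cobalt-60 source or a sham exposure. There were 4 unirradiated animals, which carry the label of day 4 and served every comparison with control ileum, 4 animals for each dose (6.7 Gy or 7.4 Gy) on days 4 and 7, and 2 animals for each dose on day 12. The controls of days 7 and 12 are thus those of day 4, and on day 12 the spread between animals of 1 dose rests on 2 animals.

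Claudins are membrane proteins that make up the strands of the tight junction that closes the gap between neighbouring epithelial cells. Some members, such as claudin-3 and claudin-4, are known for sealing that gap, whereas claudin-2 and claudin-15 form channels through which sodium ions and water pass between the cells. In the small intestine claudin-2 is typical of the crypts, and claudin-15 supplies the lumen with the sodium that nutrient uptake needs.

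Values are given as log2 signal, the log2 intensity of a probe minus the 75th percentile of its array, so that 0 is the brightness at that percentile and 1 unit is a 2-fold difference. The 75th percentile ranged from 837 to 1330 intensity units over the arrays, and between 72.7% and 88.1% of the probes were well above background (median 84.0%). The ileal genes FABP6, SLC10A2, SLC51B, CUBN and FGF19 were well above background on 24 of 24 arrays. Of 4 colonic genes CA4 was so on 24 of 24, AQP8 and MS4A12 on 22 of 24 each, and CA1 on 0 of 24. Control replicate 1 stood apart from the other controls in its muscle layer, with a mean of 6 smooth muscle markers of 2.13 against 4.36 to 4.46 in the other 3. Each of the 6 slides held 4 arrays, and the controls occupied the first position of 4 slides. Slides 1 to 4 were scanned on the first of 2 scan days and slides 5 and 6 on the other. All controls and all day-7 arrays of 6.7 Gy thus shared a scan day. Both day-12 arrays of 6.7 Gy lay on slides 3 and 4 and both of 7.4 Gy on slides 5 and 6. On day 12 dose can therefore not be told apart from slide and scan day. All day-4 arrays lay in position 1 or 2 of a slide and all arrays of days 7 and 12 in position 3 or 4, so that array position and day cannot be told apart when days 7 and 12 are compared with the controls or with day 4. Since whole gut wall was extracted, fewer cells of a type and less RNA per cell cannot be told apart in any of these values.

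Both probes of CLDN3 and the second of the 2 CLDN15 probes were lower on day 4 than in unirradiated ileum, and the other 6 tested claudin probes did not pass. With array position as a term in the fit 0 of 9 passed on day 4, doses pooled. Only 343 of all 36108 tested probes passed there, so that a 0 among 9 says little. On days 7 and 12 no claudin probe passed against the controls, and between day 4 and day 7 CLDN3 rose while CLDN2 fell, in a comparison that shares the day-4 animals. Of the 10 claudin probes 9 were tested, all of them well above background on 24 of 24 arrays. The test was limma, fitted to 36108 probes with 7 group means, and a probe passed at an adjusted p (Benjamini-Hochberg over all tested probes) below 0.05. On day 4 with the doses pooled, 3 of 9 claudin probes passed (9.24% of all tested probes), all lower (4.66% of all tested probes were lower). None of the 9 passed with a 2-fold change (2.06%). By the brightest probe of each gene, CLDN3 alone of 7 claudin genes passed, beside 10.3% of all genes with a tested probe. At single doses 2 of 9 passed after 6.7 Gy, both of CLDN3 (2.61% of all tested probes), and 3 of 9 after 7.4 Gy (6.66%), again all lower. The F test of limma over the 7 groups passed 2 of 9, both probes of CLDN3 (adjusted p = 0.00419 and 0.00163, 8.43% of all tested probes), with CLDN2 next (adjusted p = 0.0523).

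On day 7 with the doses pooled, limma passed 0 of 9 claudin probes against the controls (1.33% of all tested probes), with 1 at an unadjusted p below 0.05 (13.5%). On day 12 it passed 0 of 9 (0.523%), with 0 at an unadjusted p below 0.05 (9.47%). At single doses it also passed 0 of 9. On day 7 the background was 0.449% after 6.7 Gy and 0.978% after 7.4 Gy, with 0 and 1 claudin probes at an unadjusted p below 0.05 (9.36% and 13.4% of all tested probes). On day 12 it was 0.155% and 0.0499%, with 1 and 0 claudin probes at an unadjusted p below 0.05 (8.98% and 8.13%). The t-test named in the study's methods passed 0 of 9 in each of these comparisons. Its count over all tested probes is not given for them, so that these counts of 0 say little about the claudins.

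Directly between days 4 and 7, 4 of 9 claudin probes passed (13.2% of all tested probes), 3 higher (7.63%), both CLDN3 probes among them, and 1 lower (5.56%). Of these CLDN2 reached 2-fold (1.06%). At single doses 2 of 9 passed, the probes of CLDN3, against 1.03% of all tested probes after 6.7 Gy and 3.79% after 7.4 Gy. By day 12, 5 of 9 had changed from day 4 and passed (17.5% of all tested probes), 4 higher (10.7%) and 1 lower (6.8%). Both CLDN3 probes were among the higher ones, and the second reached 2-fold (2.75%). At single doses 3 of 9 passed after 6.7 Gy (7.45%) and 1 of 9 after 7.4 Gy (3.35%).

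Between days 7 and 12 limma and the methods' t-test passed 0 of 9, the t-test again without a count over all tested probes. The background by limma was 0.288% with doses pooled, 0.0471% after 6.7 Gy and 0.00831% after 7.4 Gy. At an unadjusted p below 0.05 there were 1, 1 and 0 claudin probes (14.4%, 11.1% and 7.68% of all tested probes). The median change of the 9 claudin probes was -0.30 on day 4 against the controls, beside -0.09 over all tested probes. It was 0.34 beside 0.05 between days 4 and 7, and 0.48 beside 0.09 between days 4 and 12.

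**Figure D1:**
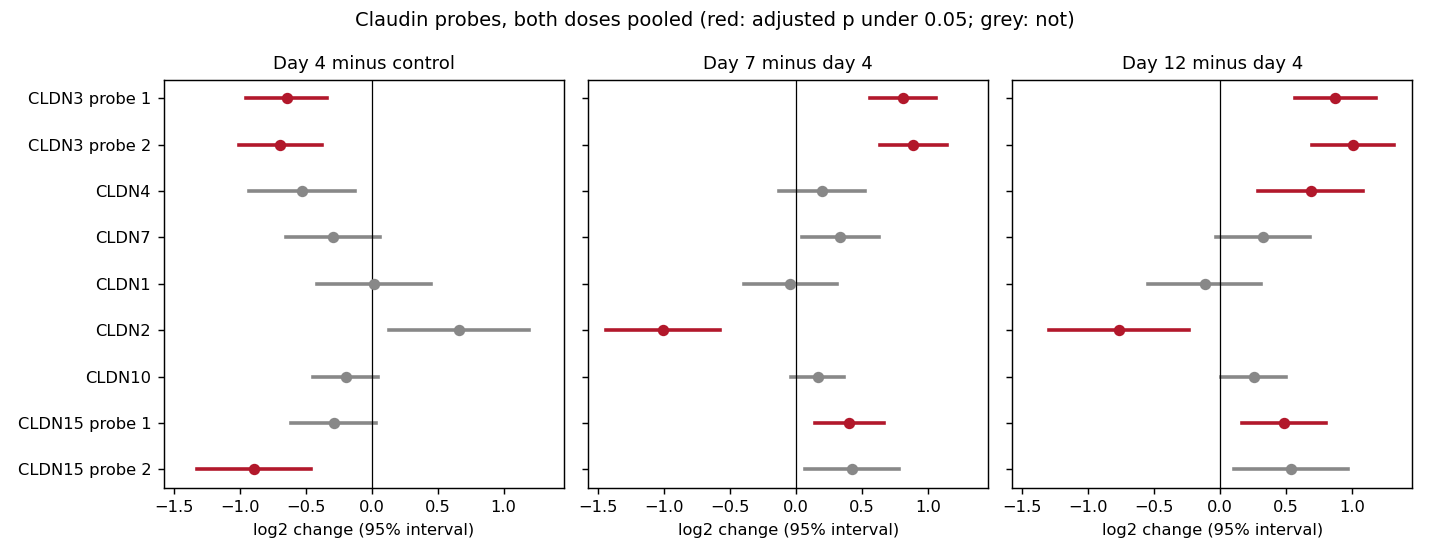
Change in log2 signal (x axis) of each of the 9 tested claudin probes for day 4 minus unirradiated ileum, day 7 minus day 4 and day 12 minus day 4, doses pooled; bars are 95% intervals from limma and red points passed at an adjusted p below 0.05. Both CLDN3 probes lie to the left of 0 on day 4 and to the right in the later panels, and CLDN2 runs the opposite way, from 0.66 on day 4 to -1.004 between days 4 and 7.

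CLDN3 (gene 716771), a sealing claudin found along much of the intestinal epithelium, was lower in every day-4 animal than in every control. Its first probe read 6.002, 5.74, 5.95 and 5.51 in the 4 unirradiated animals. On day 4 it read 5.31, 4.97, 5.32 and 4.91 in the 6.7-Gy animals and 5.12, 5.28, 5.33 and 5.03 in the 7.4-Gy animals. The 8 irradiated animals lay below the lowest control, with no overlap. The pooled day-4 change was -0.64 (SE 0.15, limma adjusted p = 0.0120), a 1.56-fold decrease with a 95% interval of the log2 change from -0.95 to -0.34. Its second probe, at 3.29, 3.06, 3.42 and 2.89 in the controls, read from 2.19 to 2.72 in the 8 day-4 animals and was also without overlap. It fell by 0.69 on the log2 scale (SE 0.15, limma adjusted p = 0.00879). Over the 24 animals the probes of CLDN3 moved together (r = 0.96, and 0.84 after subtracting the group means).

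**Figure D2:**
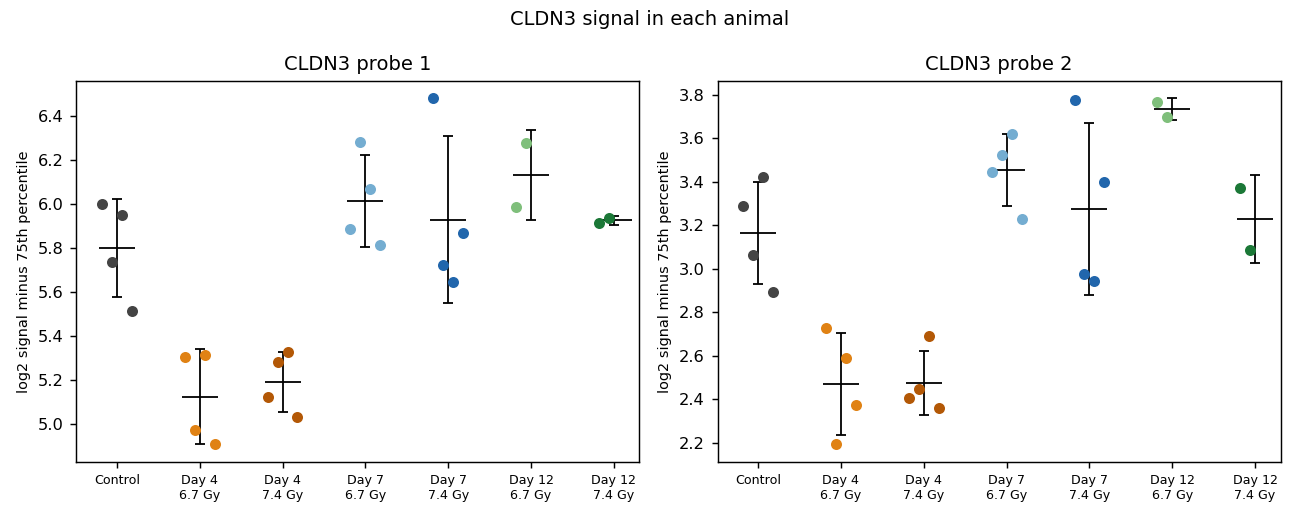
Log2 signal of both CLDN3 probes (y axis) in each of the 24 animals by group (x axis), with the group mean and its SD as a bar. The 8 day-4 animals sit between 4.91 and 5.33 on the first probe, below the 4 controls at 5.51 to 6.002, and the animals of days 7 and 12 sit at 5.64 or above.

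CLDN3 was lower on day 4 after either dose. The first probe changed by -0.68 after 6.7 Gy and by -0.61 after 7.4 Gy (limma adjusted p = 0.0395 and 0.0367). The second changed by -0.69 after either dose (limma adjusted p = 0.0380 and 0.0230). These single-dose calls rested on few animals. After 6.7 Gy both probes lost them without control replicate 1, 2 or 3 or day-4 replicate 2 or 4, with changes between -0.73 and -0.60. After 7.4 Gy the first probe lost it without control replicate 1, 2 or 3 or day-4 replicate 1, 3 or 4, and the second without control replicate 1 or 3 or day-4 replicate 1 or 4. The difference of 7.4 Gy minus 6.7 Gy on day 4 was 0.07 for the first probe, with a 95% interval from -0.29 to 0.42. Leaving out control replicate 1 brought the pooled day-4 change of the first probe to -0.58 (limma adjusted p = 0.0549), and the second probe passed with each of the 24 animals left out in turn. On the 4 slides that held a control and a day-4 array, the first probe was lower in 4 of 4 pairs, with differences from -0.83 to -0.23, and the second in 4 of 4. With the array position as a term in the fit, the day-4 changes kept their size, at -0.62 and -0.71, but did not pass (limma adjusted p = 0.184 and 0.154), and 343 of 36108 probes passed in that fit. The mean of the 2 day-4 arrays that shared the first position with the 4 controls differed from the mean of those by -0.66 for the first probe and by -0.71 for the second.

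By day 7 CLDN3 was back within and above the range of the controls. The first probe read 5.89, 6.28, 6.07 and 5.81 in the 6.7-Gy animals and 6.48, 5.72, 5.64 and 5.87 in the 7.4-Gy animals. On day 12 it read 5.99 and 6.28 in the 6.7-Gy animals and 5.91 and 5.94 in the 7.4-Gy animals. All 8 animals of day 7 and all 4 of day 12 were above all 8 of day 4. Relative to day 4, on day 7 the first probe rose by 0.81 (SE 0.12, limma adjusted p = 0.00039) and the second by 0.89 (SE 0.12, limma adjusted p = 0.00021). On day 12 they were higher than on day 4 by 0.87 and 1.01 (limma adjusted p = 0.00114 and 0.000426), and the second probe alone reached 2-fold. Against the controls the first probe changed by 0.17 on day 7 (95% interval -0.14 to 0.48) and by 0.23 on day 12 (95% interval -0.13 to 0.58), and neither passed. In the order of the group means the only gap between neighbours without overlap on the first probe was between day 4 after 7.4 Gy, at 5.19 ± 0.14 (SD of 4 animals), and the controls, at 5.80 ± 0.22 (SD of 4 animals).

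CLDN4 (gene 716808), another sealing claudin, lies next to CLDN3 in the RefSeq gene order of the macaque (assembly T2T-MMU8v2.0), with 0 protein-coding genes between them. It read 5.25, 4.20, 4.16 and 3.78 in the controls. On day 4 it read 4.01, 3.99, 3.64 and 3.67 in the 6.7-Gy animals and 3.92, 3.68, 3.97 and 3.66 in the 7.4-Gy animals. Control replicate 1 was high, and the day-4 animals overlapped with the lowest control. The pooled day-4 change was -0.53 (SE 0.19, limma adjusted p = 0.0831), and without control replicate 1 it was -0.23 (limma adjusted p = 0.357). Without control replicate 4, the lowest, it was -0.72 and passed (limma adjusted p = 0.0305).

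Unlike CLDN3, the signal of CLDN4 on day 7 still overlapped with day 4. It read 4.01, 4.36, 4.19 and 3.91 in the 6.7-Gy animals and 4.14, 3.78, 3.95 and 3.78 in the 7.4-Gy animals, a change from day 4 of 0.20 (limma adjusted p = 0.423). On day 12 the 4 animals read 4.97, 4.62, 4.44 and 3.98, of which the first pair had received 6.7 Gy. The rise from day 4 to day 12 was 0.69 (SE 0.19, limma adjusted p = 0.0203), with 3 of 4 animals above all 8 of day 4. By dose it was 0.97 after 6.7 Gy (limma adjusted p = 0.0388) and 0.40 after 7.4 Gy (limma adjusted p = 0.435), and the difference between the doses in this rise was not tested. The 6.7-Gy call was lost without either day-12 animal or day-4 replicate 3 or 4, with changes over the animals left out from 0.79 to 1.14 and limma adjusted p up to 0.261. The pooled call was lost without replicate 1 of the 6.7-Gy group of day 12 (0.60, limma adjusted p = 0.0967) and without replicate 1 of the 7.4-Gy group (0.57, limma adjusted p = 0.121), and with epithelial scaling (0.34, limma adjusted p = 0.177). Between days 7 and 12 CLDN4 changed by 0.49 (SE 0.19, limma adjusted p = 0.256).

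CLDN7 (gene 714647), found at tight junctions and along the basolateral membrane, passed in none of the 21 comparisons in the limma fit described above. It read 5.43, 5.54, 5.61 and 5.04 in the controls. On day 4 it ranged from 4.65 to 5.47 with a median of 5.11, and on day 7 from 4.93 to 5.92 with a median of 5.42. The day-4 animals overlapped with the controls and 4 of 8 lay below all of them. The pooled day-4 change was -0.30 (95% interval -0.65 to 0.06, limma adjusted p = 0.265), and the change from day 4 to day 7 was 0.34 (95% interval 0.05 to 0.63, limma adjusted p = 0.112). The latter passed with scan day or slide as a fixed block, 2 of 13 other settings (limma adjusted p down to 0.0228). On slides shared with a control, CLDN7 was lower on day 4 in 4 of 4 pairs, with differences from -0.90 to -0.10.

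CLDN8 (gene 705345), a sealing claudin better known from distal colon and kidney, was too dim to be tested. Its probe was well above background on 9 of 24 arrays, 2 of them controls, 1 of day 4, 4 of day 7 and 2 of day 12. The controls read -7.04, -7.08, -6.14 and -6.08. On day 7 it read -6.26, -6.78, -4.22 and -6.97 in the 6.7-Gy animals and -4.38, -5.29, -7.03 and -6.57 in the 7.4-Gy animals. The day-4 animals ranged from -8.32 to -6.06, and on day 12 it read -7.78, -5.76, -7.42 and -6.39. The days overlapped. In no group was the probe measured on every array, so that no fold change is given.

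CLDN2 (gene 701378), the cation and water channel of the crypts, read higher on day 4 than in most controls, a difference that did not pass, and fell thereafter. It read 3.00, 1.89, 2.19 and 2.05 in the controls. On day 4 it read 2.28, 2.95, 2.50 and 3.68 in the 6.7-Gy animals and 3.00, 3.41, 3.08 and 2.69 in the 7.4-Gy animals. All 8 day-4 animals were above the other 3 controls, but control replicate 1 overlapped with them and 3 of 8 lay above all controls. The pooled day-4 change was 0.66 (SE 0.25, 95% interval 0.13 to 1.20) (limma adjusted p = 0.0979). Without control replicate 1 it was 0.90 (limma adjusted p = 0.0568), and with the scan day as a block it was 0.89 and passed (limma adjusted p = 0.0490). With array position as a term it was 0.31 (limma adjusted p = 0.766). The mean of 6 crypt stem cell markers was -3.09 to -2.53 in the controls, -2.70 to -0.73 on day 4 and -2.87 to -1.59 on day 7, and its part in the values of CLDN2 was not tested.

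After day 4 CLDN2 fell in animals of either dose. On day 7 it read 1.34, 1.77, 1.99 and 2.20 in the 6.7-Gy animals and 1.49, 2.05, 2.05 and 2.66 in the 7.4-Gy animals, and 7 of 8 animals were below all 8 of day 4. It fell by 1.004 on the log2 scale (SE 0.21, limma adjusted p = 0.00411), a 2.01-fold decrease with a 95% interval of the log2 change from -1.44 to -0.57. This call was kept with each of the 24 animals left out in turn, between -1.10 and -0.87. At single doses the change was -1.03 after 6.7 Gy and -0.98 after 7.4 Gy (limma adjusted p = 0.0877 and 0.0673), with 4 of 4 animals of day 7 below 4 of 4 of day 4 at either dose. On day 12 it read 2.43, 2.40, 1.87 and 2.02, and the change from day 4 was -0.77 (SE 0.25, limma adjusted p = 0.0427), a call that held with 13 of 24 single animals left out. It was lost without any 1 animal of day 12, without replicate 2 or 4 (6.7 Gy) or 1, 2 or 3 (7.4 Gy) of day 4, and narrowly without control replicate 3 or replicate 2 of day 7 after 6.7 Gy, with changes between -0.81 and -0.63. It was also lost by the methods' t-test (adjusted p = 0.0812), with only the groups compared (0.0648), with no filter on dim probes (0.0568) and with the replicate number as a block (0.107). Against the controls CLDN2 changed by -0.34 on day 7 (95% interval -0.87 to 0.19) and by -0.10 on day 12 (95% interval -0.72 to 0.51). The day-4 difference between doses, 7.4 Gy minus 6.7 Gy, was 0.19 (95% interval -0.42 to 0.80).

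**Figure D3:**
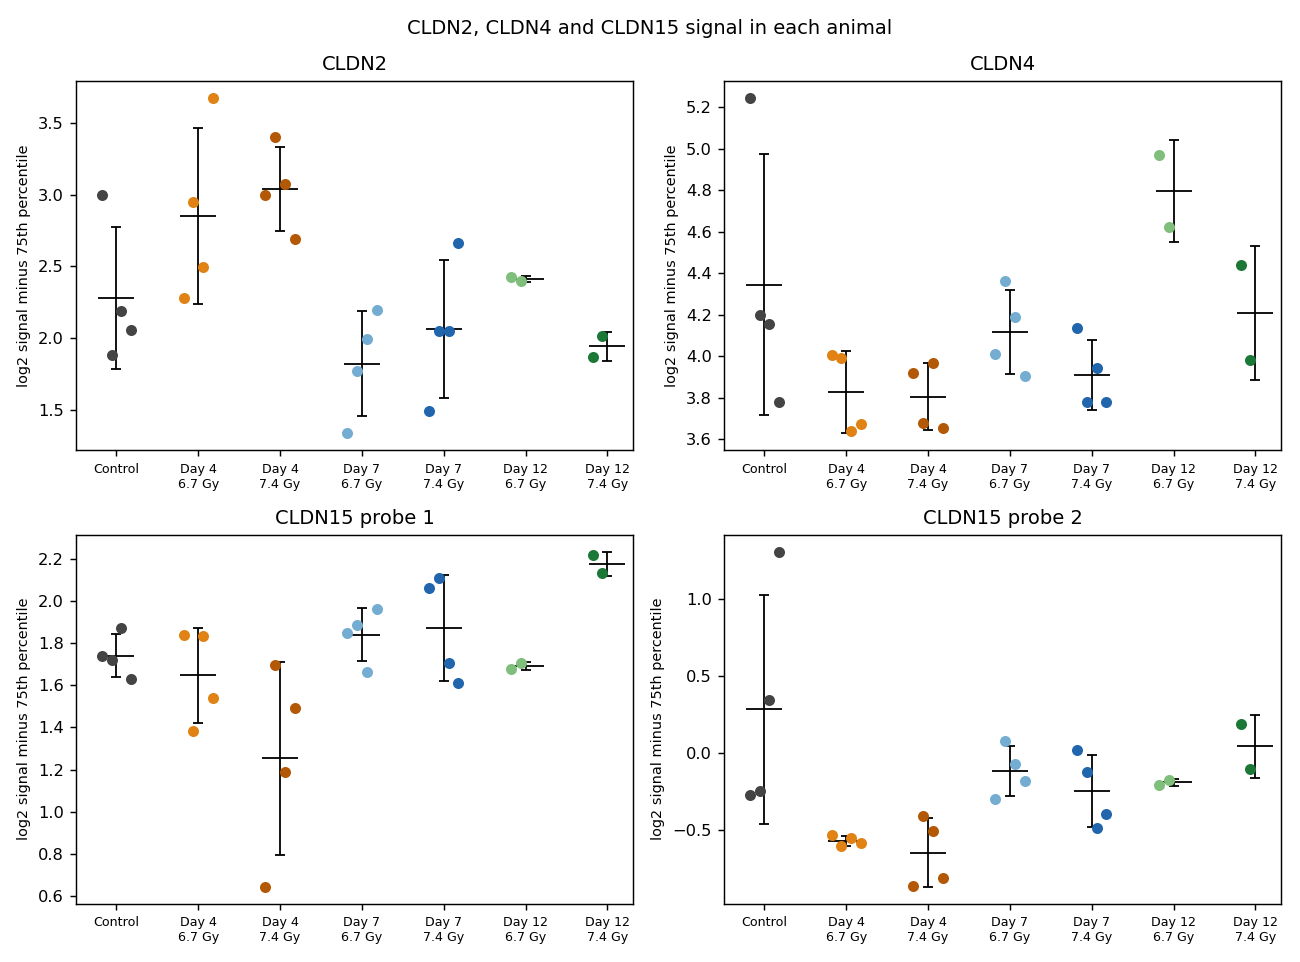
Log2 signal (y axis) of CLDN2, CLDN4 and the CLDN15 probes in each of the 24 animals by group (x axis), with the group mean and its SD as a bar. CLDN2 is highest on day 4 (2.28 to 3.68) and lowest on day 7 (1.34 to 2.66), and single controls stand high in CLDN2 (3.00), CLDN4 (5.25) and the second CLDN15 probe (1.31).

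CLDN15 (gene 719637), the sodium channel claudin of the small intestine, gave different results with its 2 probes, whose values correlated weakly over the 24 animals (r = 0.44, and 0.19 after subtracting the group means). The second probe read -0.27, -0.25, 0.34 and 1.31 in the controls. On day 4 it read -0.53, -0.61, -0.56 and -0.59 in the 6.7-Gy animals and -0.86, -0.41, -0.51 and -0.81 in the 7.4-Gy animals, and all 8 were below all controls. It fell by 0.89 on the log2 scale (SE 0.21, limma adjusted p = 0.0131), by 0.85 after 6.7 Gy (limma adjusted p = 0.0590) and by 0.93 after 7.4 Gy (limma adjusted p = 0.0265). The 7.4-Gy call was lost without control replicate 3 or day-4 replicate 1 or 4, with changes between -0.91 and -0.86. Without control replicate 4, the high one, the change was -0.55 and still passed (limma adjusted p = 0.0294). With array position as a term it was -0.89 and did not pass (limma adjusted p = 0.188), nor did it by the methods' t-test (adjusted p = 0.0968, with Benjamini-Hochberg adjustment over the probes that limma tested), with only the groups compared in the fit (limma adjusted p = 0.0832) or with epithelial scaling (-0.31, limma adjusted p = 0.234).

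The first CLDN15 probe read 1.74, 1.72, 1.87 and 1.63 in the controls. On day 4 it read 1.84, 1.38, 1.83 and 1.54 in the 6.7-Gy animals and 0.64, 1.70, 1.19 and 1.49 in the 7.4-Gy animals, so that 5 of 8 lay below all controls and the groups overlapped. Its pooled day-4 change was -0.29 (SE 0.15, limma adjusted p = 0.224). The first probe rose by 0.40 to day 7 (SE 0.13, limma adjusted p = 0.0382) and by 0.48 to day 12 (SE 0.15, limma adjusted p = 0.0360). By dose the change to day 7 was 0.19 after 6.7 Gy (limma adjusted p = 0.559) and 0.62 after 7.4 Gy (limma adjusted p = 0.0555). To day 12 it was 0.04 after 6.7 Gy (limma adjusted p = 0.918) and 0.92 after 7.4 Gy (limma adjusted p = 0.0249), and the difference between these dose effects was not tested. The 7.4-Gy call to day 12 was lost without day-12 replicate 1 or 2 or day-4 replicate 1 (limma adjusted p up to 0.190) and in 6 of 14 other settings, with adjusted p from 0.0586 with the replicate number as a block to 0.284 by the methods' t-test. On day 7 it read 1.85, 1.89, 1.66 and 1.96 in the 6.7-Gy animals and 2.06, 2.11, 1.70 and 1.61 in the 7.4-Gy animals, and 5 of 8 were above all 8 of day 4. Other fits ended the calls with doses pooled. The adjusted p to day 7 and to day 12 was 0.1001 and 0.176 by the methods' t-test, 0.0779 and 0.112 with only the groups compared, 0.0542 and 0.0872 with the replicate number as a block, 0.698 and 0.618 with epithelial scaling, and 0.0518 to day 7 with no filter on dim probes. They held with 15 and 16 of 24 single animals left out. Both were lost without replicate 2 or 4 (6.7 Gy) or replicate 1 or 3 (7.4 Gy) of day 4. The first was also lost without replicate 1, 2 or 4 (6.7 Gy) or replicate 1 or 2 (7.4 Gy) of day 7 (changes from 0.30), and the second without any 1 animal of day 12 (changes from 0.38). The second probe changed by 0.42 and 0.53 over the same intervals (limma adjusted p = 0.0991 and 0.0766), and passed both by the methods' t-test (adjusted p = 0.0100 and 0.0165) and with only the groups compared (0.0157 and 0.0267). Thus the probes shared their direction in these 3 comparisons and passed in different ones.

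CLDN10 (gene 695638), whose isoforms make cation or anion channels, and CLDN1 (gene 704330), a sealing claudin known best from the skin, passed in none of the 21 comparisons in the limma fit described above. CLDN10 read between -2.47 and -2.24 in the controls, between -2.88 and -2.31 on day 4 and between -2.70 and -2.25 on day 7, and these groups overlapped. Its day-4 change was -0.20 (95% interval -0.44 to 0.05, limma adjusted p = 0.283). CLDN1 read between -4.79 and -4.37 in the controls and between -5.13 and -4.11 on day 4. Its day-4 change was 0.02 (95% interval -0.42 to 0.45), and the group means stayed between -4.80 and -4.52.

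The doses were also compared within each day. On day 4 limma passed 0 of 9 claudin probes between 7.4 Gy and 6.7 Gy (0% of all tested probes), with 1 at an unadjusted p below 0.05 (5.54%), the first CLDN15 probe at -0.39 (95% interval -0.76 to -0.02). On day 7 it passed 0 of 9 (0%), with 0 at an unadjusted p below 0.05 (4.02%). On day 12 each dose had 2 animals, on slides and a scan day of its own. There limma passed 0 of 9 (0.00277%), with 0 at an unadjusted p below 0.05 (6.25%). The methods' t-test passed 0 of 9 on each of these days, and its count over all tested probes is not given for them. The widest day-12 interval was that of CLDN2, from -1.34 to 0.40.

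The mean of 10 epithelial markers (EPCAM, CDH17, KRT8, KRT18, KRT20, VIL1, ESRP2, TSPAN8, PIGR and LGALS4, out of 14 listed) was 3.52 to 3.83 in the controls, 2.82 to 3.31 on day 4, 3.47 to 3.79 on day 7 and 3.28 to 3.70 on day 12. On day 4 limma passed 6 of the 10 markers as lower, beside 10.3% of all genes with a tested probe in either direction. VIL1, a villus actin-binding protein, fell by 1.30 on the log2 scale, PIGR, the receptor that carries IgA across the epithelium, by 1.50, and EPCAM by 0.62 (limma adjusted p = 0.000132, 0.0305 and 0.0147). The mean of 4 goblet cell markers was 4.66 to 5.08 in the controls and 3.69 to 4.43 on day 4. The mean of 8 absorptive enterocyte markers was 0.89 to 2.004 in the controls and 0.04 to 2.65 on day 4, that of 5 ileal enterocyte markers 2.27 to 3.03 and 0.58 to 3.18, and that of 4 Paneth cell markers 5.13 to 6.44 and 5.14 to 6.51. The 3 tested colon markers had means of -1.68 to -1.15 in the controls and -2.94 to -1.46 on day 4, and the 2 tested stomach markers of -4.21 to -3.78 and -4.73 to -3.57. The mean of 7 fibroblast markers was 0.16 to 0.71 in the controls, 0.64 to 1.62 on day 4 after 6.7 Gy and 1.15 to 1.83 after 7.4 Gy, and that of 9 endothelial markers was -1.75 to -1.34, -1.77 to -0.85 and -1.22 to -0.89, so that after 7.4 Gy both lay above all controls. Markers of smooth muscle (6 genes, 2.13 to 4.46 in the controls and 3.91 to 5.03 on day 4), macrophages (4 genes, 0.85 to 1.34 and 0.68 to 1.62) and proliferating cells (7 genes, 0.57 to 0.93 and 0.47 to 2.15) overlapped. Markers of lymphocytes (8 genes) were lower on day 4, at -1.52 to -0.99 in the controls and -2.39 to -1.53 on day 4, as were those of red cells (2 genes), at 3.98 to 4.92 and 0.94 to 2.37. The part that the makeup of the tissue had in the claudin changes was not tested.

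The changes were also computed on values scaled to the epithelial markers in place of the 75th percentile. This scaling shifts all probes of an array alike and moved the median change over all tested probes on day 4 from -0.09 to 0.49, with 19350 of 36108 probes passing. CLDN3 then changed by -0.07 and -0.12 on day 4 (limma adjusted p = 0.739 and 0.504), and the second CLDN15 probe by -0.31 (limma adjusted p = 0.234), all below that median. CLDN2 changed by 1.24 (limma adjusted p = 0.000702), above it, and was higher after 6.7 Gy (1.14, limma adjusted p = 0.00521) and after 7.4 Gy (1.34, limma adjusted p = 0.00185), where 15380 and 17050 of 36108 probes passed. For day 7 against day 4 the median over all tested probes was -0.42 on this scale, with 20372 of 36108 probes passing. CLDN2 changed by -1.48 over that interval (limma adjusted p = 4.29e-05), while CLDN3 rose by 0.34 and 0.42 (limma adjusted p = 0.0333 and 0.00574). The day-4 changes of CLDN4, CLDN7, CLDN10 and the first CLDN15 probe lay between 0.05 and 0.38 on this scale, below the median of all tested probes. CLDN1 changed by 0.59 on day 4 (limma adjusted p = 0.0462) and by -0.51 from day 4 to day 7 (limma adjusted p = 0.0340), close to those medians.

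Across the 24 animals the claudins were set against the mean of the epithelial markers, using the brighter probe of each of 7 claudin genes. CLDN3 rose with it (Pearson r = 0.74, permutation p = 4e-05, adjusted over the 7 relations computed 0.00028, Spearman rho = 0.70, permutation p = 0.00014, adjusted p = 0.00098). CLDN4 did so less closely (r = 0.55, permutation p = 0.00515, adjusted p = 0.0177, rho = 0.55, permutation p = 0.00563, adjusted p = 0.0197), as did CLDN7 (r = 0.51, permutation p = 0.0101, adjusted p = 0.0177, rho = 0.43, adjusted p = 0.0615). CLDN2 had the opposite sign (r = -0.52, permutation p = 0.00919, adjusted p = 0.0177, rho = -0.45, adjusted p = 0.0615). Without the 2 animals farthest from the median marker level, both of day 4, r was 0.68 for CLDN3 and 0.56 for CLDN4. It was -0.39 for CLDN2 and 0.39 for CLDN7, both with an adjusted p of 0.101 in the permutation test. These calls, though not the sign of r, depended on those animals. After subtracting the group means no claudin passed, with r = 0.18 for CLDN3, 0.39 for CLDN4 and 0.15 for CLDN2 (lowest adjusted p = 0.502 by permutation within groups).

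**Figure D4:**
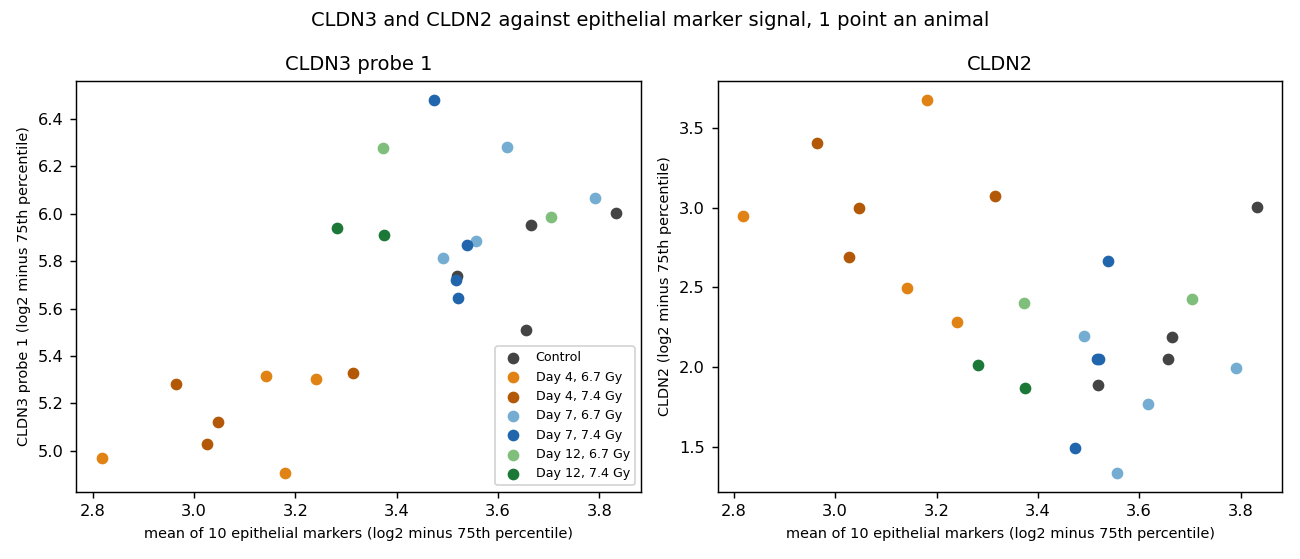
Log2 signal of the first CLDN3 probe and of CLDN2 (y axes) against the mean log2 signal of 10 epithelial markers (x axis) in the 24 animals, coloured by day. The day-4 animals lie at the low end of the markers (2.82 to 3.31), low in CLDN3 and high in CLDN2, and r over all animals is 0.74 and -0.52.

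Between claudins, 21 pairs of genes were compared over the deviations of the 24 animals from their group means, and none passed the adjustment. The pair of CLDN2 and CLDN7 had r = -0.66 (permutation p = 0.0112, adjusted p = 0.146). The pair of CLDN3 and CLDN7 had r = 0.64 (permutation p = 0.0139, adjusted p = 0.146), and the neighbours CLDN3 and CLDN4 had r = 0.44 (adjusted p = 0.244).

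Among the other claudin and claudin-domain genes of the array, 8 of 13 with a probe were tested. They were CLDN9, CLDN11, CLDN12, CLDN14, CLDN17, CLDN19, CLDN20 and CLDND1, and their day-4 changes lay between -0.67 and 0.19. Limma passed 0 of these 8 on day 4 (10.3% of all genes with a tested probe), with 1 at an unadjusted p below 0.05 (27.8% of all tested probes). From day 4 to day 7 it passed 0 (14.4% of all genes), with 2 at an unadjusted p below 0.05 (29.8% of all tested probes). Between days 4 and 12 it passed CLDN9 alone (0.32, SE 0.09, limma adjusted p = 0.024), beside 19% of all genes with a tested probe. Of the other membrane proteins of the tight junction, 6 were tested and 2 fell on day 4, beside 10.3% of all genes passing in either direction. Occludin, OCLN, fell by 0.75 on the log2 scale (SE 0.20, limma adjusted p = 0.0265), and tricellulin, MARVELD2, which closes the corners where cells meet, fell by 0.66 (SE 0.13, limma adjusted p = 0.00506). In the comparison of day 7 with day 4, which shares the day-4 animals with the one above, OCLN rose by 0.80 and MARVELD2 by 0.58 (limma adjusted p = 0.00395 and 0.00179), beside 14.4% of all genes. By day 12 OCLN, MARVELD2 and the polarity protein CRB3 (0.49, limma adjusted p = 0.0202) had risen from day 4, OCLN by 1.03 and MARVELD2 by 0.82 (limma adjusted p = 0.00288 and 0.000673), and ESAM, an adhesion protein of endothelial junctions, fell by 0.75 (limma adjusted p = 0.0291), so that 4 of 6 passed beside 19% of all genes.

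Of the scaffold, polarity, adherens junction and desmosome genes, shares near those of all genes passed on day 4 (10.3% of all genes with a tested probe). These and the following changes are on the 75th percentile scale, and the lists were not refitted on the scale of the epithelial markers. On day 4 limma passed 1 of 15, AMOT, which rose by 0.49 (limma adjusted p = 0.0175). From day 4 to day 7 it passed 1 of 15 beside 14.4% of all genes, TJP3, a cytoplasmic anchor of claudins, which rose by 0.68 (limma adjusted p = 0.0172). From day 4 to day 12 TJP3 rose by 0.996 and TJAP1 by 0.30, and AMOT fell by 0.44 (limma adjusted p = 0.00595, 0.0299 and 0.0205), 3 of 15 beside 19% of all genes. Of 8 adherens junction and desmosome genes 1 fell on day 4, CTNNA1, the alpha-catenin that ties cadherins to actin, by 0.45 (limma adjusted p = 0.0228). From day 4 to day 7 the desmosomal DSP rose by 0.52, the cell adhesion gene NECTIN3 by 0.44 and CTNNA1 by 0.36 (limma adjusted p = 0.00452, 0.00894 and 0.0201), 3 of 8 beside 14.4% of all genes.

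Of 10 tested transcription factors known to act on claudin or junction genes, 4 passed on day 4, beside 10.3% of all genes with a tested probe. The list was chosen with earlier results of these data known. The epithelial factors KLF5 and CDX2 fell by 0.95 and 0.50 on the log2 scale (limma adjusted p = 0.000409 and 0.0320). SNAI1 and ZEB2, repressors of epithelial genes, rose by 1.06 and 0.47 (limma adjusted p = 0.0159 and 0.0102). The same 4 genes passed in the opposite direction between days 4 and 7, when 14.4% of all genes passed, with KLF5 at 0.95, CDX2 at 0.44, SNAI1 at -1.10 and ZEB2 at -0.53 (limma adjusted p = 5.7e-05, 0.0151, 0.00229 and 0.000777). Both comparisons share the day-4 animals. Of 12 cytokine and receptor genes tied to claudin-2, 2 passed on day 4 (10.3% of all genes), IL6ST, a receptor subunit for IL-6, which rose by 0.52, and IL6, which fell by 0.86 (limma adjusted p = 0.0371 and 0.0488). Between days 4 and 12 IL6 rose by 1.70, IL13 by 0.97, IFNGR1 by 0.36 and TNFRSF1B by 0.29 (limma adjusted p = 0.000673, 0.0406, 0.0288 and 0.0293), 4 of 12 beside 19% of all genes.

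**Figure D5:**
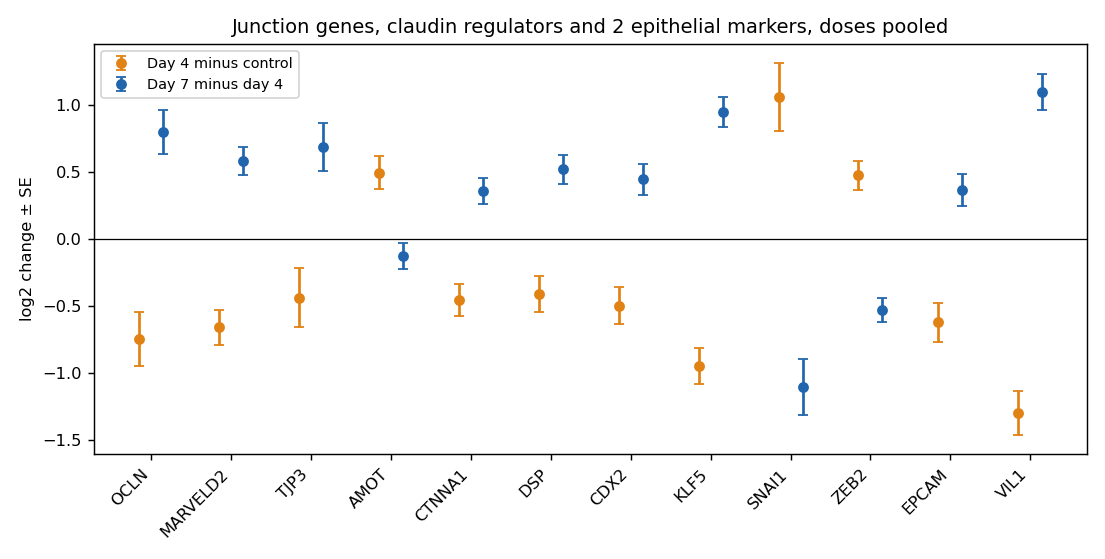
Change in log2 signal (y axis, with its SE from limma as a bar) of junction, transcription factor and epithelial marker genes (x axis) for day 4 minus unirradiated ileum and day 7 minus day 4, doses pooled. OCLN (-0.75 and 0.80), MARVELD2 (-0.66 and 0.58) and KLF5 (-0.95 and 0.95) turn from lower to higher, and SNAI1 (1.06 and -1.10) from higher to lower.

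The genes whose signal was most like that of each claudin over the 24 arrays were found by Pearson r among 14190 genes with a symbol. For CLDN3 they were MGST3 (0.90), LOC706135 (0.88) and IHH (0.86), the last a hedgehog ligand of the villus epithelium. For CLDN2 they were IER3 (0.84), LASS5 (0.83) and CLIC2 (0.83). For CLDN4 they were HBEGF (0.90), a ligand of the EGF receptor, LASS4 (0.86) and SLCO3A1 (0.86). For CLDN15 they were SEPHS2 (0.85), HTR4 (0.85) and BCL2L14 (0.84), for CLDN7 CCDC71 (0.86), LOC100427469 (0.84) and STRADB (0.82). For CLDN10 they were ERF (0.86), OXTR (0.85) and RASL12 (0.82), and for CLDN1 the highest were lower, LOC702584 (0.70), NOL9 (0.67) and ARHGEF2 (0.64).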

How the data were processed

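The arrays were scanned and read by the authors with Agilent Feature Extraction 11.0.1.1, and per the file headers the deposited scanner files hold background-subtracted, detrended spot intensity (gProcessedSignal) and flags of 0 or 1. The deposited normalized table holds log2 values that the authors shifted by the 75th percentile of each array and centred on the median of each probe. It was the source of gene symbols and an alternative. Design coordinates belong to an older build, and none are given. Members and gene lists were chosen with earlier results of these data known.

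For 43603 non-control probes, the log2 intensity minus the 75th percentile of the array was fitted in limma 3.58.1 (R 4.3.3) with 7 group means, 24 arrays and 17 residual degrees of freedom. The 36108 probes that in 1 or more groups were above background throughout (Agilent flag) were tested, two-sided, with Benjamini-Hochberg adjustment per comparison. The fit was tested on simulated data. A gene with several probes in a list is represented by its brightest tested probe, and list genes are named where they passed, at most 5 per list and comparison. Likeness names the 3 genes with the highest r. Permutation tests drew 100000 resamples (scipy 1.17.1). Array number limits the precision. The labels' protocol text names day 21 where titles, day field and study methods name day 12. Besides each animal left out in turn, the alternatives covered background correction, normalization, filtering, slide, scan day, array position and the replicate number.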

Additional observations from a re-analysis of the deposited data

Results flagged for a closer look

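Differences between days passed limma for 4 claudin genes and are listed because irradiated animals differed between time points, where array position and day cannot be told apart. From day 4 to day 7, doses pooled, the change was 0.81 (adjusted p = 0.00039) and 0.89 (adjusted p = 0.00021) for the CLDN3 probes, 0.40 (adjusted p = 0.0382) for the first CLDN15 probe and -1.004 (adjusted p = 0.00411) for CLDN2. From day 4 to day 12 it was 0.87 (adjusted p = 0.00114) and 1.01 (adjusted p = 0.000426) for CLDN3, 0.48 (adjusted p = 0.0360) for the first CLDN15 probe, 0.69 (adjusted p = 0.0203) for CLDN4 and -0.77 (adjusted p = 0.0427) for CLDN2.

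CLDN8 was left out of the test as too dim, yet 4 irradiated animals were well above background and above the highest control, which read -6.08. They were replicate 3 of day 7 after 6.7 Gy (-4.22), replicates 1 and 2 of day 7 after 7.4 Gy (-4.38 and -5.29) and replicate 2 of day 12 after 6.7 Gy (-5.76). Of 45 groups of 4 animals checked for a single distant value by Dixon's test, none held one.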

How the results depend on the processing

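Besides the animals left out in turn, 454 recomputed values of the changes named in the text kept their direction and their side of the threshold under the alternatives, 87 no longer passed, 17 newly passed and 12 turned their sign. The counts of claudin probes that passed moved as follows, and the cause was not tested. With array position as a term the day-4 counts against the controls went from 2 (6.7 Gy), 3 (7.4 Gy) and 3 (doses pooled) to 0 each. In these fits 273, 153 and 343 of 36108 probes passed, so that a 0 among 9 probes says little. The methods' t-test and a fit of only the groups compared gave 0 at either dose on day 4, from day 4 to day 7 and from day 4 to day 12, where limma over all groups gave 2, 3, 2, 2, 3 and 1. Of all 36108 probes the t-test passed 2, 344, 0, 122, 6 and 0 in these comparisons and the smaller fit 52, 819, 0, 461, 1 and 240, so that a 0 among 9 probes says little there. Scaling to epithelial markers gave 1 at either dose on day 4 and 1 from day 4 to day 7 after 7.4 Gy, each time CLDN2 in place of the probes that passed otherwise, 1 from day 4 to day 12 after 7.4 Gy, CLDN2 (adjusted p = 0.0483) in place of the first CLDN15 probe (0.134), and 2 from day 4 to day 7 after 6.7 Gy, CLDN2 (0.00172) in place of the first CLDN3 probe (0.123). It gave 1 of 3 from day 4 to day 12 after 6.7 Gy and 3 of 5 with doses pooled. With doses pooled CLDN2 and CLDN1 (adjusted p = 0.000702 and 0.0462) took the place of the 3 probes on day 4, where CLDN4 was added with the replicate number as a block (0.0480) and CLDN2 with scan day as a block (0.0490), and CLDN7 was added from day 4 to day 7 with scan day (0.0370) or slide (0.0228) as a fixed block. The day-4 count of 2 after 6.7 Gy became 0 with no filter on dim probes or with scan day as a block, and 1 with normexp, quantile normalization or slide as a fixed block. Between days 4 and 7 it became 1 of 2 with slide as a fixed block at either dose, with quantile normalization after 6.7 Gy and with normexp after 7.4 Gy. After 7.4 Gy it became 3, with the first CLDN15 probe, under trend and robust limma (adjusted p = 0.0452), slide as a random block (0.0458) and only probes above background on all arrays (0.0447), and under quantile normalization CLDN2 (0.0499) took the place of the first CLDN3 probe (0.0557). Between days 4 and 12 slide as a fixed block gave 1 of 3 after 6.7 Gy. After 7.4 Gy the count of 1 became 0 with slide or scan day as a fixed block, 2 with normexp, and 3 with trend and robust limma, slide as a random block or only probes above background on all arrays. With the replicate number as a block it became 0 after 7.4 Gy and 3 of 5 with doses pooled. Between groups, 62 same-numbered pairs of animals had a median r of their deviations from the group means of 0.03, with 16 pairs over 0.1. The 182 pairs with different numbers had -0.01, with 30 over 0.1. For 36 pairs on the same slide it was 0.07, with 15 over 0.1, and for 208 on different slides -0.02, with 31 over 0.1. Whether the replicate number links animals was not tested. Without the 2 animals farthest from the median, r with the epithelial markers was -0.39 for CLDN2 and 0.39 for CLDN7.

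With doses pooled, CLDN1 turned its sign on day 4 with array position (-0.057) and slide as a fixed block (-0.00078), and between days 4 and 7 with normexp (0.076). Epithelial scaling shifts all probes (median change over all tested probes 0.49 on day 4 and -0.42 between days 4 and 7), so that the signs below carry that shift and say nothing of the claudins alone. On that scale the day-4 values were, for CLDN10 (0.38), the first CLDN15 probe (0.29), CLDN4 (0.048) and CLDN7 (0.28). Between days 4 and 7 they were, for CLDN10 (-0.31), the first and second CLDN15 probe (-0.067 and -0.047), CLDN4 (-0.28) and CLDN7 (-0.13).

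With single animals left out, the counts ranged from 0 to 2 and 0 to 4 on day 4 by dose (6.7 Gy, then 7.4 Gy) and from 2 to 4 pooled. Between days 4 and 7 they ranged from 0 to 2, 0 to 4 and 3 to 5, and from day 4 to day 12 from 0 to 3, 0 to 4 and 2 to 6. The change of CLDN1 ranged from -0.069 to 0.10 on day 4 and from -0.13 to 0.042 from day 4 to day 7. The F test over the 7 groups passed 2 claudin probes, both of CLDN3, and 2 to 4 with an animal left out. CLDN2, at an adjusted p of 0.0523 there, passed with scan day as a block (0.0314), slide as a random block (0.0354), quantile normalization (0.0366), trend and robust limma (0.0420), only probes above background on all arrays (0.0420) and epithelial scaling (0.000926, where the first CLDN3 probe no longer passed, at 0.116), and its adjusted p reached 0.0769 with the replicate number as a block. Group sizes of 4, and of 2 on day 12, limit what these arrays can show.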
